A study of Daphnia magna with 36 samples.

Results

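Adult female Daphnia magna were exposed for 24 h to silica nanoparticles (written SiO NP in the labels) at the LC25, 5.1 mg/L, and their RNA was compared with RNA of unexposed laboratory animals on 2-colour arrays. The arrays were taken by their titles, which name this toxicant and level and number the exposures 1 to 4. They came to 6 of the 36 arrays of the series and 4 of its 23 exposures. Exposures 1 and 3 were each measured on 2 arrays with the dyes exchanged, and exposures 2 and 4 on 1 array each, with the exposed RNA in Cy5 and the unexposed RNA in Cy3. Every RNA sample, exposed or unexposed, was made from 16 pooled whole females that were 10 days old and kept at 25 °C. The sources used here name no genotype or clone. The groups set beside it were SiO NP at 1/10 of the LC50 (1.4 mg/L, 3 exposures), zinc oxide nanoparticles (ZnO NP) at the LC25 (9.0 mg/L, 4 exposures) and zinc sulphate (ZnSO4) at the LC25 (0.91 mg/L, 5 exposures), with 6 arrays each. Levels named LC25 are matched by the share of animals they kill and not by mass, so the concentrations differ between toxicants.

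Daphnia magna is a small freshwater crustacean that feeds by filtering suspended particles from the water, so that particles reach its gut as well as its outer surface and gills. It is a standard animal for testing the toxicity of chemicals and nanomaterials. Silica particles contain no zinc, and zinc salts supply dissolved zinc ions. The series' text states the comparison of exposed with unexposed animals for each condition, and does not describe the purpose of the silica exposures.

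None of the 5495 probes tested, out of 7680 on the arrays, passed the threshold for a ratio different from 0 after SiO NP at the LC25. Their fitted ratios stayed within 2-fold of equality. At the same time more probes than a 5% share had an unadjusted p below 0.05, and part of the ratios had one sign in all 4 exposures. Probes of some plates of the probe set lay together on one side of 0. The values also showed how far the 6 arrays disagreed with each other, which limits what these 4 exposures can resolve.

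The value for a probe on an array is the log ratio that the authors deposited, read here as log2, with exposed and unexposed RNA on one array. The sources used here do not give which RNA is the numerator. Ratios are therefore called positive or negative, and neither sign is read as induction. The signs are used as deposited, on the assumption that the authors had already turned dye-swapped arrays to one direction. Probe names are plate and well positions, such as plate A1 and well C1. Of the 7680 probes, 0 matched the gene table available for the organism, so neither genes, pathways nor tissue markers can be named, and no sequences are shown.

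Between 75.4% and 85.9% of the 7680 probes had a value on a SiO NP LC25 array, against 46.7% to 90.5% on the other 30 arrays. All 6 arrays held a value for 4515 probes, 5 arrays for 1295, 4 for 705, 3 for 397, and none for 768. Of these 768 probes, 29 had a value on at least 20 of the other 30 arrays, so most of them lacked values elsewhere too. The SD of the log2 ratios over probes was 0.48 and 0.51 on the arrays of exposure 1 with the exposed RNA in Cy5 and in Cy3. It was 0.36 and 0.46 on those of exposure 3, 0.29 for exposure 2 and 0.34 for exposure 4. The other arrays spanned 0.23 to 0.55, a range that holds all 6. Array medians lay between -0.03 and 0.03. Precision can be stated only through the number of arrays, since spot brightness was not used here.

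Arrays of one exposure with exchanged dyes agreed weakly or not at all. The pair of exposure 1 correlated at Pearson r = -0.258 over 5701 probes, and 39.8% of the probes had the same sign on both arrays. The pair of exposure 3 correlated at r = 0.172 over 6089 probes, with 55.4% of signs shared. Probes on an array share its hybridisation and are not replicates, so these coefficients carry no test. The strongest ratios differed in the same way between the pairs. Among probes with a value on both arrays of a pair, 219 were beyond 2-fold on the Cy5 array of exposure 1. Of these, 87 (39.7%) had the same sign on its Cy3 array. Of 117 such probes on the Cy5 array of exposure 3, 84 (71.8%) kept their sign on the Cy3 array. In the reverse direction the share was 35.8% of 316 probes for exposure 1 and 47.7% of 218 for exposure 3. Of probes beyond 2-fold on both arrays of a pair, 16 of 34 shared a sign in exposure 1 and 33 of 35 in exposure 3. The closest arrays of the group were those of exposures 2 and 4, both with the exposed RNA in Cy5, at r = 0.400 and 68.1% shared signs.

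The exposures correlated with each other to different degrees. Averaged over the arrays of an exposure, exposures 2 and 4 correlated at r = 0.400, exposures 2 and 3 at 0.293, and exposures 3 and 4 at 0.179. Exposure 1 correlated at 0.208 with exposure 4, at 0.107 with exposure 2 and at -0.0507 with exposure 3, the only negative value of the 6 pairs. After medians of well positions and plates were subtracted, exposures 1 and 4 correlated at 0.176 and exposures 3 and 4 at 0.0572. The Cy5 array of exposure 1 correlated at r = 0.0806 to 0.369 with the 5 Cy5 arrays numbered exposure 1 in other groups, and at -0.220 to -0.176 with the 3 Cy3 arrays of that number. Its Cy3 array gave r = 0.00949 to 0.212 with those 3 Cy3 arrays and -0.269 to -0.0697 with those 5 Cy5 arrays. The sign of these correlations thus followed the dye orientation of the arrays. No pair of SiO NP LC25 arrays correlated below -0.3, with -0.105 as the lowest among arrays of one orientation. With arrays of other groups, 3 of 92 pairs of one orientation fell below -0.3 (lowest r = -0.520), and 5 of 88 of opposite orientation did (lowest r = -0.443).

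The reading of the sign can be set beside its alternative on probes with a value on all 6 arrays of a group. As deposited, 284 of 4515 probes (6.29%) had one sign on all 6 arrays of SiO NP at the LC25, 127 positive and 157 negative. With the signs of the Cy3 arrays turned, as for values of Cy5 over Cy3, 211 (4.67%) did. The same shares were 2.27% as deposited and 10.9% turned for SiO NP at 1/10 LC50, over 4762 probes. They were 15.2% and 1.67% for ZnO NP at the LC25, over 2570 probes, and 5.63% and 1.35% for ZnSO4 at the LC25, over 3410. As deposited, the share was several times higher than with turned signs for ZnO NP, somewhat higher for SiO NP at the LC25, and lower for SiO NP at 1/10 LC50. The part of a remaining dye effect in these shares was not tested. Among the 284 probes the median absolute mean ratio was 0.31 on the log2 scale, the highest was 0.72, and 16 exceeded 0.5.

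**Figure D1:**
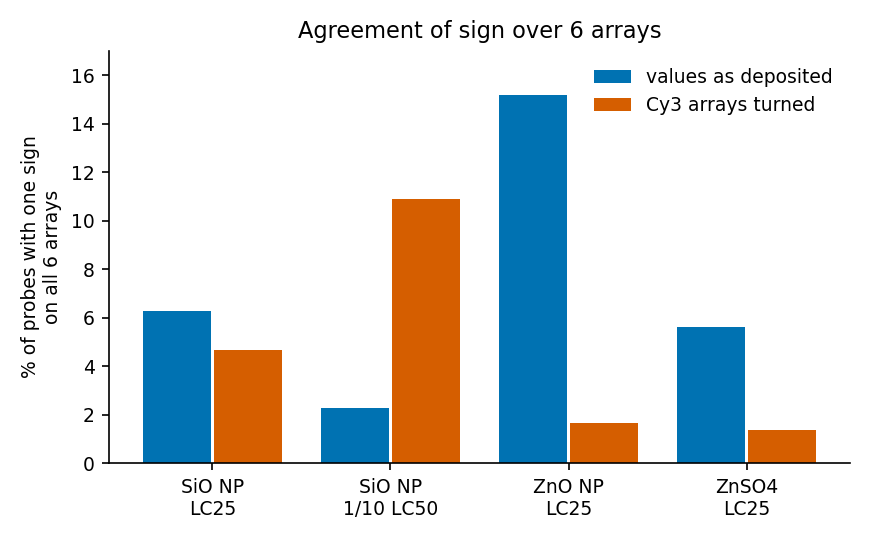
Percentage of probes with one sign on all 6 arrays of a group, among probes with a value on all 6, for values as deposited (left bar) and with the signs of the arrays carrying exposed RNA in Cy3 turned (right bar). The bars of SiO NP at the LC25 are 6.29% and 4.67%, those of ZnO NP at the LC25 15.2% and 1.67%.

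For the test, arrays of one exposure were averaged and the mean ratio of each probe was compared with 0 in limma, with all 6 groups of the series in one fit and a term for the dye of exposures held by 1 array. The test took in the 5495 probes that had values in 2 or more exposures of each of the 6 groups. After Benjamini-Hochberg adjustment over these, 0 probes (0%) passed 0.05 for SiO NP at the LC25, and the lowest adjusted p was 0.356. Without adjustment, 530 probes (9.65%) had a p below 0.05, of which 294 had positive and 236 negative ratios. The plot of p values shows the surplus spread over the lower bins, with 530 probes below 0.05 and 509 between 0.05 and 0.1. Fitted ratios ran from -0.93 to 0.79 on the log2 scale, and 0 probes lay beyond 2-fold. The 95% confidence interval of a probe reached a median of 0.30 to each side of its fitted ratio. The 530 probes had a median absolute fitted ratio of 0.35, with a range of 0.19 to 0.93, against 0.14 over all tested probes. The spread used in the test is common to the 6 groups. The median SD between exposures was 0.22 for SiO NP at the LC25, 0.14 for SiO NP at the lower level, 0.27 for ZnO NP at the LC25 and 0.32 for ZnSO4 at the LC25, and the unadjusted count holds only as far as the groups spread alike.

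**Figure D2:**
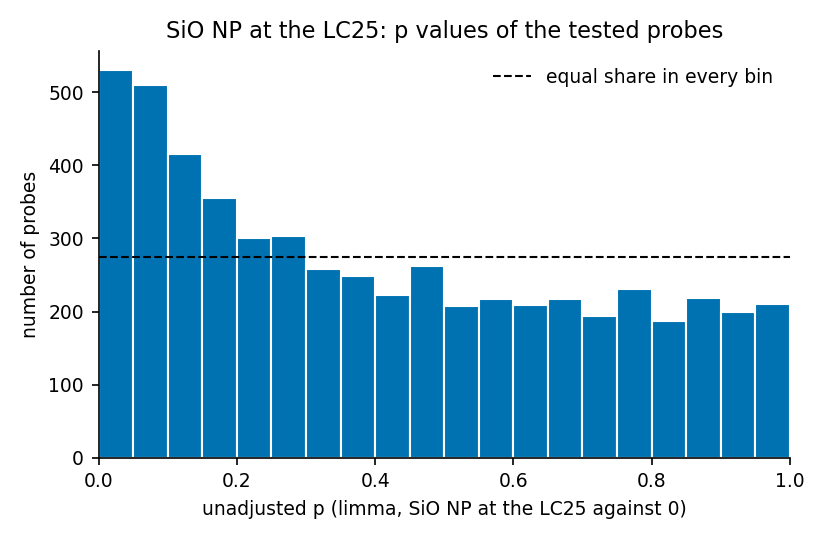
Number of tested probes in 20 bins of the unadjusted p from limma, for the mean log2 ratio of SiO NP at the LC25 against 0. The dashed line is the count that equal bins would hold, and the lowest bin holds 530 of 5495 probes.

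When all 36 arrays of the series entered as separate values, with the exposure as a random block, 13 probes passed for SiO NP at the LC25. Of these, 8 had a positive and 5 a negative ratio. The correlation of arrays of one exposure was estimated at -0.0165 in that fit, so it counted the arrays of one RNA pool nearly as separate samples. The other 19 alternatives gave 0 probes past the threshold and 347 to 1009 probes at an unadjusted p below 0.05.

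Strong ratios differed in sign between exposures. Values of exposures 1 and 3 are averages of 2 arrays that agreed weakly or not at all. Their counts are therefore not on a par with those of the single arrays of exposures 2 and 4. Over all probes with a value, 264 (Cy5) and 326 (Cy3) lay beyond 2-fold on the arrays of exposure 1. On those of exposure 3, 122 (Cy5) and 229 (Cy3) did. After averaging, exposure 1 had 92 probes beyond 2-fold, 23 positive and 69 negative. Exposure 4 also leaned to negative ratios, with 13 positive and 30 negative of 43. Exposures 2 and 3 leaned the other way, with 31 positive and 11 negative of 42 in exposure 2 and 61 positive and 16 negative of 77 in exposure 3. Among the 5006 tested probes with a value in all 4 exposures, 1395 (27.9%) had one sign in all of them. Of these, 751 were positive and 644 negative. The share that would have one sign without any response was not estimated. No probe exceeded 0.5 on the log2 scale with one sign in all 4 exposures.

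Each exposure was also set against the probes chosen without it. The exposure left out can share control RNA, dye orientation and plate effects with the others, so its agreement is no independent support. Of 465 probes at an unadjusted p below 0.05 in the fit without exposure 2, 377 (81.1%) had the fitted sign in exposure 2, against 66.6% of all probes. Of 381 probes chosen without exposure 4, 304 (79.8%) had their sign there, against 65.8%. For exposure 3 the share was 67.6% (307 of 454), against 59.5%. For exposure 1 it was 59.7% (268 of 449), against 56.1%. The agreement of the chosen probes was thus higher than that of all probes in each of the 4 exposures, by the smallest margin in exposure 1. The margin was widest in exposures 2 and 4, both single arrays with the exposed RNA in Cy5, and the part of the dye or of control RNA that exposures may share was not tested. After medians of well positions and plates were subtracted from each array, the shares for exposures 1 to 4 were 56.2%, 74.8%, 64.3% and 72.1%, against 52.4%, 62.8%, 55.7% and 61.5% of all probes. The median ratio of the chosen probes in their fitted sign was 0.07, 0.18, 0.12 and 0.24 in exposures 1 to 4, against 0.04, 0.10, 0.07 and 0.13 for all probes in theirs.

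As no probe passed the adjusted threshold, 4 probes are described by a fixed rule. They are the 2 positive and 2 negative probes of lowest p among those with a value on all 6 arrays and one sign in all 4 exposures. Having one sign in all exposures is thus part of the choice and no result.

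P4CH5 had log2 ratios of 0.24, 0.56, 0.43 and 0.63 in exposures 1 to 4. On the single arrays it was 0.49 (Cy5) and -0.01 (Cy3) in exposure 1 and 0.57 (Cy5) and 0.30 (Cy3) in exposure 3, so that the Cy3 array was the lower one of both pairs. The mean was 0.46 ± 0.17 (SD, n = 4), and with the dye term the fitted ratio was 0.38 ± 0.09 (SE; 1.30-fold; limma adjusted p = 0.356). P7AG9 had 0.91, 0.33, 0.49 and 0.17 in the 4 exposures. Its arrays of one exposure opposed each other, with -0.08 (Cy5) and 1.91 (Cy3) in exposure 1 and -0.14 (Cy5) and 1.11 (Cy3) in exposure 3. The positive values of exposures 1 and 3 thus came from the Cy3 arrays alone. The mean was 0.48 ± 0.32 (SD, n = 4) and the fitted ratio 0.59 ± 0.15 (SE; limma adjusted p = 0.356). Read as Cy5 over Cy3, its fitted ratio was -0.37, and with only the arrays numbered exposure 1 read that way it was 0.03.

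A1C1 was negative on all 6 arrays. Its exposures had -0.53, -0.31, -0.40 and -0.58, and its arrays -0.75 (Cy5) and -0.32 (Cy3) in exposure 1 and -0.44 (Cy5) and -0.36 (Cy3) in exposure 3. The mean was -0.45 ± 0.12 (SD, n = 4), and the fitted ratio -0.47 ± 0.10 (SE; 1.39-fold; limma adjusted p = 0.356). Read as Cy5 over Cy3 the fitted ratio of A1C1 was -0.16, and with medians of well positions and plates subtracted it was -0.31. P1CB2 had -1.20 in exposure 1, against -0.27, -0.25 and -0.19 in exposures 2 to 4. Both arrays of exposure 1 were low, at -0.98 (Cy5) and -1.43 (Cy3), and those of exposure 3 had -0.30 (Cy5) and -0.20 (Cy3). The mean of -0.48 ± 0.49 (SD, n = 4) therefore rested mainly on exposure 1, and the fitted ratio was -0.63 ± 0.15 (SE; 1.55-fold; limma adjusted p = 0.356). Read as Cy5 over Cy3 the fitted ratio of P1CB2 was 0.011, and without exposure 1 it was -0.39.

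**Figure D3:**
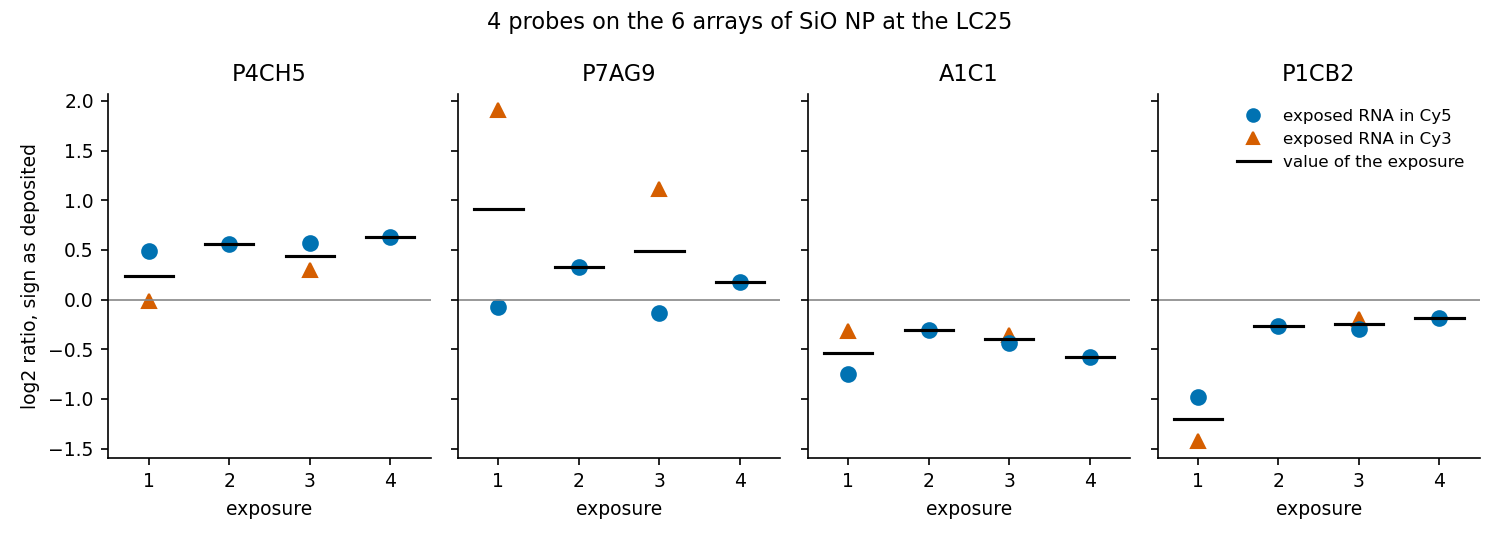
Log2 ratio, with the sign as deposited, of 4 probes on the 6 arrays of SiO NP at the LC25, by exposure; circles are arrays with the exposed RNA in Cy5, triangles those with it in Cy3, and bars the value of the exposure. P7AG9 lies at 1.91 and 1.11 on the Cy3 arrays and at -0.08 and -0.14 on their Cy5 partners, while A1C1 is negative on all 6 arrays.

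The same probes lay nearer to 0 under SiO NP at the lower level, though no difference passed its threshold. Tested probes in general did so, with a median absolute mean of 0.07 at 1/10 LC50 against 0.14 at the LC25. Each value at the lower level averaged 2 arrays with exchanged dyes. On all 6 arrays, one sign was held by 2.27% of probes there as deposited and by 10.9% with turned signs. How far this averaging drew values toward 0 was not tested. At the LC25 the mean of A1C1 was -0.45 ± 0.12 (SD, n = 4), against -0.01 ± 0.07 (SD, n = 3) at 1/10 LC50, and its values did not overlap between these levels. Its fitted difference was -0.46 ± 0.15 (SE), with a limma adjusted p of 0.924. A1C1 was also negative in every exposure of ZnO NP and of ZnSO4 at the LC25, with means of -0.32 ± 0.20 (SD, n = 4) and -0.22 ± 0.11 (SD, n = 5), and its ranges overlapped with those of SiO NP at the LC25. P4CH5 averaged 0.46 ± 0.17 (SD, n = 4) under SiO NP at the LC25, against 0.05 ± 0.14 (SD, n = 3) at 1/10 LC50, 0.11 ± 0.10 (SD, n = 4) under ZnO NP and 0.13 ± 0.22 (SD, n = 5) under ZnSO4. Its exposures at the LC25 of SiO NP lay above all those of SiO NP at 1/10 LC50 and of ZnO NP, the lowest of the 4 at 0.24 against highest values of 0.21 and 0.23, and overlapped with those of ZnSO4.

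The mean of P7AG9 was 0.48 ± 0.32 (SD, n = 4) under SiO NP at the LC25, against -0.20 ± 0.36 (SD, n = 5) under ZnSO4. The fitted difference was 0.70 ± 0.18 (SE), at a limma adjusted p of 0.143, and the ranges overlapped through 1 ZnSO4 exposure at 0.39. P1CB2 averaged -0.48 ± 0.49 (SD, n = 4) under SiO NP at the LC25, against 0.06 ± 0.04 (SD, n = 3) at 1/10 LC50, 0.10 ± 0.30 (SD, n = 3) under ZnO NP and -0.06 ± 0.27 (SD, n = 5) under ZnSO4. Its 4 LC25 exposures were all below the 3 of the lower SiO NP level, where the lowest value was 0.02. The limma adjusted p of the 12 differences between SiO NP at the LC25 and another group for these 4 probes ranged from 0.143 to 0.924. Because the probes were chosen on the SiO NP LC25 values, these differences lean away from 0 by construction. The same choice favours ranges that do not overlap, as given for A1C1, P4CH5 and P1CB2. The share of all tested probes without overlap was not counted, so the lack of overlap is no result about these probes.

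**Figure D4:**
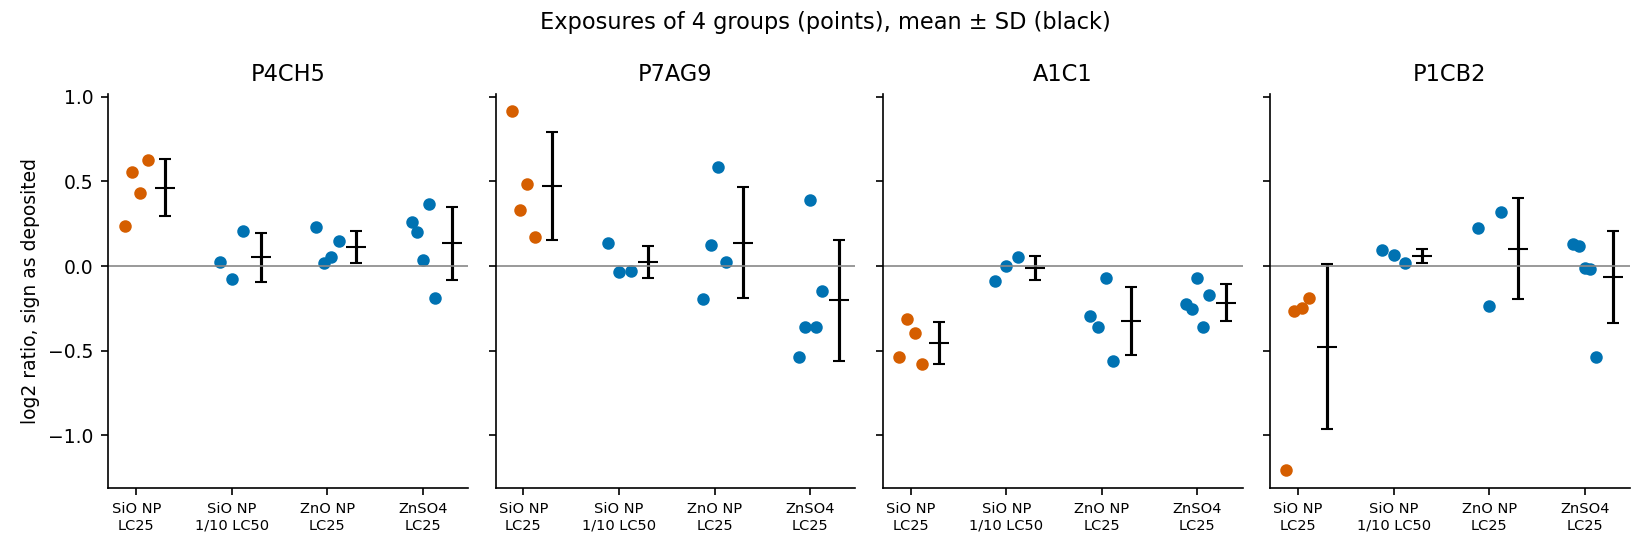
Log2 ratio of the 4 probes in each exposure of SiO NP at the LC25, SiO NP at 1/10 LC50, ZnO NP at the LC25 and ZnSO4 at the LC25; points are exposures, and the black mark and bar are their mean and SD. SiO NP at the LC25 averages 0.46 for P4CH5 and -0.45 for A1C1, against 0.05 and -0.01 at the lower level.

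In the tests of differences between groups, again no probe passed. SiO NP at the LC25 minus SiO NP at 1/10 LC50 gave 0 probes past the threshold in limma and 238 (4.33%) at an unadjusted p below 0.05, with a lowest adjusted p of 0.924. The unadjusted count ranged from 102 (values read as Cy5 over Cy3) to 668 (array weights) over the 23 alternatives, and was 647 with these groups fitted alone and no dye term. The median confidence half-width of this difference was 0.44 on the log2 scale, so differences between the levels below about that size were not resolved for a typical probe. Minus ZnO NP at the LC25, 0 probes passed and 447 (8.13%) had an unadjusted p below 0.05, 256 with a positive and 191 with a negative difference. The lowest adjusted p was 0.185, the median half-width 0.40, and 27 fitted differences exceeded 2-fold; over the alternatives the unadjusted count ranged from 226 to 656. Minus ZnSO4 at the LC25, 0 probes passed and 942 (17.1%) had an unadjusted p below 0.05, 606 with a positive and 336 with a negative difference. The lowest limma adjusted p was 0.143, the median half-width 0.38, and 8 fitted differences exceeded 2-fold. Over the alternatives the unadjusted count ranged from 353 to 1561. With plate medians subtracted this count against ZnSO4 was 632, and with medians of well position and plate subtracted 634. The same subtractions gave 484 and 464 against ZnO NP. The absence of calls against ZnSO4 depended on the exposures and the fit used. Without ZnSO4 exposure 3, 614 probes passed, of which 433 had a positive and 181 a negative difference. With all exposures kept, 31 passed where arrays entered as separate values with the exposure as a random block. Leaving out exposure 3 was not repeated with plate medians subtracted, so the part of plate effects in the 614 was not tested. A lack of calls does not show that the responses to SiO NP and to either zinc group are alike. Whether groups shared control RNA is not known from the sources used here. The series' text speaks of an unexposed laboratory control for all exposures, so a shared control could enter each of these comparisons.

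The plates of the probe set differed in the sign of their ratios, a pattern seen in the data and then counted. The probe names divide into a collection A on 7 plates (2688 probes) and a collection P on 13 plates (4992 probes). Of 1256 tested probes of collection A, 18 (1.43%) had a positive and 92 (7.32%) a negative ratio at an unadjusted p below 0.05. Of 4239 of collection P, 276 (6.51%) had a positive and 144 (3.40%) a negative one. The median fitted ratio of tested probes lay farthest from 0 on P1 (-0.174) and P12 (0.141), with A4 (-0.140) close to P12. By exposure the order differed, and the medians of A4 were -0.09, -0.19, -0.21 and -0.24 in exposures 1 to 4. On P12 the exposure medians were 0.09, 0.12, 0.14 and 0.25, and 61 of 378 probes (16.1%) were positive at an unadjusted p below 0.05, against 5.35% of all tested probes. On P1 they were -0.15, -0.16, -0.07 and -0.29, and 57 of 353 probes (16.1%) were negative, against 4.29% of all. Plates P10 and P11 had 39 of 383 (10.2%) and 44 of 369 (11.9%) positive probes, with 2 negative ones each. P1CB2 is a probe of plate P1 and A1C1 one of plate A1, both of which leaned negative. P4CH5 is on plate P4, which leaned positive in the fit, though not on every array. There, 28 of 367 probes were positive and 3 negative at an unadjusted limma p below 0.05 (7.63% and 0.82%). P7AG9 is on plate P7, with 9 positive and 16 negative of 338 (2.66% and 4.73%). Plate P7 had no clear lean, with a median fitted ratio of -0.01.

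**Figure D5:**
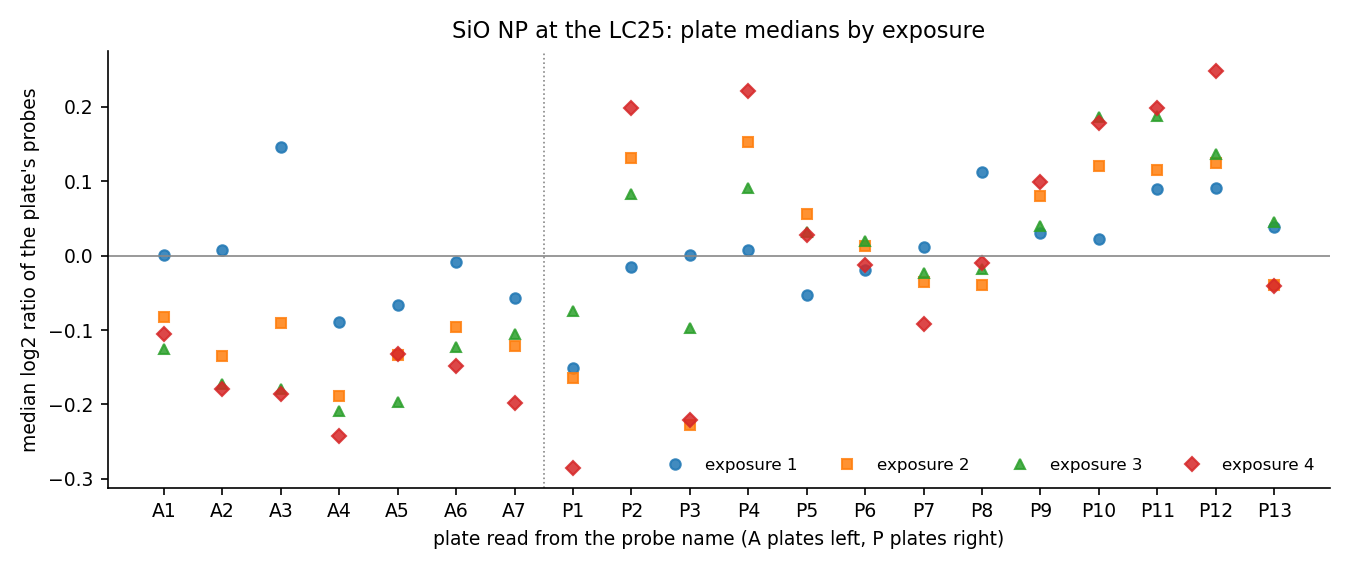
Median log2 ratio of the tested probes of each of 20 plates, for exposures 1 to 4 of SiO NP at the LC25; plates are read from the probe names. Plates P4 and P9 to P12 lie above 0 in all 4 exposures, and plates P1 and A4 to A7 below 0. All 7 A plates lie below 0 in exposures 2 to 4. Exposures 1 and 3 are averages of 2 arrays, and P4 and P10 were not above 0 on every array.

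By array, over all probes with a value, P12 and P11 had a positive median on all 6 arrays, from 0.03 to 0.24 for P12. P1 had a negative one on 5 of 6. The median of P4 was 0.26 (Cy5) and -0.18 (Cy3) in exposure 1, and 0.17 (Cy3) and -0.04 (Cy5) in exposure 3. That of P10 was -0.02 on the Cy3 array of exposure 1. Under SiO NP at 1/10 LC50 the medians of P12 were 0.002 to 0.007 and those of P1 0.007 to 0.05 in the 3 exposures. The difference between the medians of collections A and P was -0.04, -0.13, -0.19 and -0.18 in the 4 exposures of SiO NP at the LC25, and -0.03, 0.03 and -0.02 in the 3 at the lower level. Each exposure at the lower level was the average of 2 arrays with exchanged dyes. By array, the difference there was -0.11 (Cy5) and 0.06 (Cy3) in exposure 1, and 0.16 (Cy3) and -0.21 (Cy5) in exposure 3. In exposure 2 it was 0.04 on both arrays. The values near 0 in exposures 1 and 3 were thus averages of opposed arrays. At the LC25 of SiO NP, the difference by array was -0.05 (Cy5) and -0.04 (Cy3) in exposure 1. In exposure 3 of that group it was -0.37 (Cy3) and -0.0004 (Cy5), so its value of -0.19 came from the Cy3 array alone. Among the LC25 groups the difference by exposure was -0.29 to -0.07 for ZnO NP, and 0.30, 0.34, -0.15, 0.07 and 0.38 in the 5 exposures of ZnSO4. Plate accounted for 4.04% to 19.2% of the variance of the ratios on the 6 SiO NP LC25 arrays, against 0.577% to 23.6% on the others. Well position accounted for 3.53% to 20.3%, against 1.37% to 19.4%. Well positions were grouped into 64 classes within each collection. Both shares therefore hold the difference between collections A and P, and they are not separate parts of the variance. Without genes for the probes, transcripts that share a plate by their content and positions that share a printing or hybridisation effect cannot be told apart. With plate medians subtracted, 490 probes had an unadjusted p below 0.05, and with medians of plate and well position subtracted 500 did, against 530 without; 0 passed in limma in each of these. The share of probes with one sign in all 4 exposures was 21.9% after plate and well position were subtracted, against 27.9% before.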

How the data were processed

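The authors deposited 1 log ratio per probe and array, used here as log2 values; the log2 base, the numerator, the scanner, background correction, normalization and spot filter were not given in the sources used here. Another base would multiply all sizes by 1 factor and leave the tests as they are. Groups, exposure numbers and dyes come from the labels; the series' text speaks of 3 exposures on dye-swapped pairs, whereas the titles number 4 for SiO NP at the LC25, each counted as 1 replicate. Arrays of 1 exposure were averaged (avearrays) and the 6 groups fitted together with lmFit and eBayes (limma 3.58.1, R 4.3.3), with a probe-wise dye term for single arrays (+1 where Cy5 held the exposed RNA, -1 where Cy3 did) and 0 for pairs. Each difference between groups was refitted as a coefficient. Tests were two-sided, adjusted by Benjamini-Hochberg over 5495 probes with values in at least 2 exposures of every group. The fit was tested on simulated data.

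Named probes were those past the threshold, and otherwise the 2 of each sign of lowest p with a value on all 6 arrays and 1 sign in all 4 exposures; for differences none was named where none passed. The probes, plates and tests were chosen with earlier results of these data known. Alternatives changed the dye term, the groups fitted, the averaging, the sign, the scale, the filter, array weights, the prior, single arrays, plates, the replicate block and single exposures. P-values cover the spread between these exposures, and leave out that of the control RNA wherever exposures shared it. Equal exposure numbers did not pair the groups.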

Additional observations from a re-analysis of the deposited data

Results flagged for a closer look

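P1CB2 had 1 exposure far from the others in 2 groups, out of 16 sets of exposures checked; chance marks about 1 set in 20. Under SiO NP at the LC25 its exposure 1 had a log2 ratio of -1.20, against -0.27, -0.25 and -0.19 in the others. Under ZnSO4 at the LC25 its exposure 5 had -0.54, against -0.02 to 0.13 in the others.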

How the results depend on the processing

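For SiO NP at the LC25 against 0, 13 probes passed with all arrays separate and the exposure as a random block (P7AG9 at 0.64, adjusted p = 0.0424, and A1C1 at -0.43, adjusted p = 0.0472), and 0 in the other 19 alternatives. Leaving out each exposure gave 0 throughout. The replicate block gave 0 here and, for the difference from ZnO NP at the LC25, 1 probe (P12CF5); equal numbers were not shown to pair exposures, with deviations correlating at -0.292 to 0.342. That difference gave 19 probes with the random block, 1 (P13DB9) with well position and plate medians subtracted, and 0 to 2 with 1 exposure left out, the 2 being A7G17 and P10CB10 without ZnO NP exposure 4. The difference from ZnSO4 gave 31 with the random block, 3 (P12DC6, P12DD11 and P4CB5) with dye-swapped pairs alone, where 1 ZnSO4 exposure remained and was assumed to vary like the other groups, and 0 to 614 with 1 exposure left out. The 614 came without ZnSO4 exposure 3, and 1 (A4F7) without exposure 5. The difference from the lower SiO NP level gave 0 in all 23 alternatives. Probes named in this paragraph beyond P7AG9 and A1C1 were chosen after their values were seen. Read as Cy5 over Cy3, P7AG9 was -0.37 and P1CB2 0.011. Adjusted p ranged from 0.123 to 0.7096 for P4CH5, 0.0424 to 0.984 for P7AG9, 0.0472 to 0.823 for A1C1 and 0.111 to 0.994 for P1CB2. The causes of these changes were not tested. The dye term set probe by probe, the subtraction of position and plate together, and the turning of exposure 1 alone were added after seeing the data. With 4 exposures, the number of arrays limits precision.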

Other observations

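Probes without any value differed between groups. SiO NP at the LC25 had no value for 768 of 7680 probes, ZnO NP at the LC25 for 1738 and ZnSO4 at the LC25 for 676. Of these, 29 probes for SiO NP, 590 for ZnO NP and 18 for ZnSO4 had a value on at least 20 of the other 30 arrays. The reverse was seen for 29 probes with a value on all 6 SiO NP LC25 arrays and on at most 10 of the other 30. No spot brightness was used, so whether these probes differ in level was not tested.

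The fitted dye term, which is the part of a ratio that followed the dye of single arrays, ran from -0.56 to 0.63 on the log2 scale with a median absolute value of 0.084. It passed the adjusted threshold in limma for 0 of 5495 probes and had an unadjusted p below 0.05 for 375.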
